A study of Marchantia polymorpha with 6 samples.

Results

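In the thallus of the liverwort Marchantia polymorpha, 136 of 19287 gene models were well expressed in the wild type and kept a reduced but clear level in the Mpbes1 mutant. These moderately lowered genes were chosen by their values. Their mean Tak-1 level was at least 50 CPM, where CPM is the count per 1000000 counts of the library. The ratio of the mean Tak-1 level to the mean Mpbes1 level was at least 2 and under 8, and the lowest Tak-1 library lay above the highest Mpbes1 library. All 6 libraries entered this choice, so the levels and ratios of these genes between the genotypes are a description and carry no test. What the choice did not use is the structure of the gene models and their place on the scaffolds.

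Marchantia polymorpha grows as a flat, haploid body, the thallus, which extends from stem cells in the apical notches at its tips. BES1 belongs to the BES1/BZR1 family of plant transcription factors. In Arabidopsis these proteins act at the end of brassinosteroid signalling: kinases of the GSK3 type phosphorylate and restrain them, the hormone lifts that restraint, and the proteins then bind promoters and raise some genes and lower others. A gene whose transcript is lower in a mutant of such a factor may be a direct target or a distant one, and steady-state RNA levels do not separate these.

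The data are 6 poly(A) RNA libraries from untreated thalli with apical notches of plants grown for 30 days under 16 h of light and 8 h of darkness. The groups are Tak-1, a male wild-type accession, with 3 plants, and Mpbes1, a CRISPR/Cas9 mutant of the BES1 gene, with 3 plants. The labels give neither the edited allele nor the number of independent lines, and no rescued plant was analysed here. Library totals ran from 11597664 to 17741253 counts. The lowest count of a moderately lowered gene in any library was 80, and the median per library was 389 to 1345, so counting error was small beside the folds described. In bulk tissue, fewer cells of a type and less RNA per cell cannot be told apart. Gene names were not at hand: 0 of the 19287 identifiers occur in the reference table used here, the files do not pair them with names, and the targeted gene and tissue markers were not analysed. Genes are therefore given by their place on the scaffolds of the deposited table, and the identifier is printed only for the gene with the highest Tak-1 level and the gene with the largest ratio.

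As a group the genes had a median Tak-1 level of 97.6 CPM and a median Mpbes1 level of 35.1 CPM. The median ratio was 2.76, with the middle part of the genes, between the quartiles, at 2.29 to 3.52. The median log2 ratio of Mpbes1 to Tak-1 was -1.46 over these genes, against 0.00 over the 4335 other genes of at least 50 CPM in Tak-1 and 0.05 over all 12313 genes tested. Mild decreases made up most of the group. The ratio lay from 2 to under 2.5 in 52 genes, from 2.5 to under 3 in 30, from 3 to under 4 in 29, from 4 to under 5 in 13, and at 5 or more in 12. In Mpbes1 49 of the 136 still had a mean of at least 50 CPM, and the lowest mean was 8.72 CPM.

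The genes together took 2.58%, 2.77% and 2.70% of all counts in the 3 Tak-1 libraries, a mean of 2.68% ± 0.09 (SD, n = 3). In Mpbes1 they took 0.955%, 0.982% and 0.973%, a mean of 0.970% ± 0.014 (SD, n = 3). The summed share was thus steady from plant to plant in each genotype, although some single genes were not, as described further on. The sum leans on the highest genes, of which 4 ranked in the top 100 of Tak-1 with means of 1305 to 2542 CPM. Before the choice was applied, 153 genes of at least 50 CPM in Tak-1 had a ratio of at least 2, which is 3.42% of 4471 such genes, and in each of the 153 the groups did not overlap. The demand that groups not overlap therefore removed 0 genes. Of all 4471, 28.2% had every Tak-1 library above every Mpbes1 library. The other 17 of the 153 had ratios of at least 8.

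**Figure D1:**
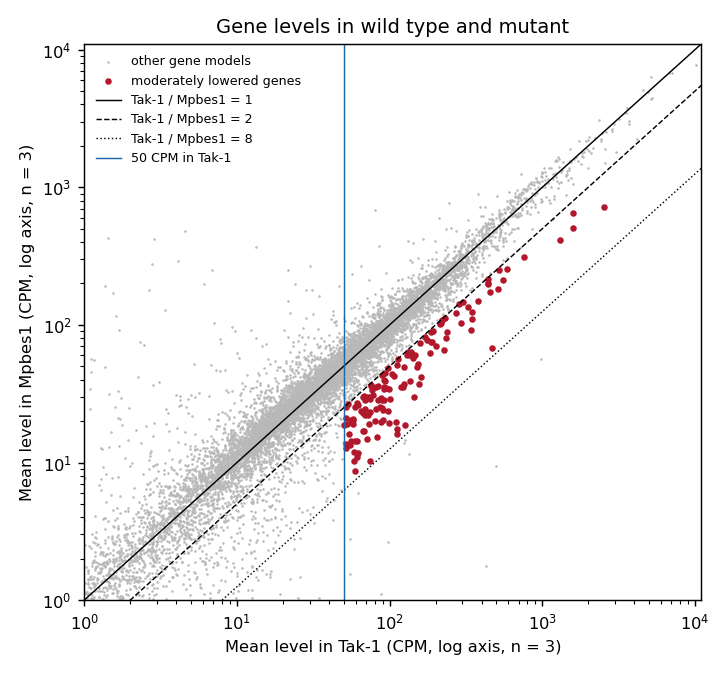
Mean level in Mpbes1 against mean level in Tak-1 for gene models of at least 1 CPM in both (log axes, CPM, means of 3 libraries), with lines for ratios of 1, 2 and 8 and for 50 CPM in Tak-1. The 136 moderately lowered genes (red) fill the wedge between the lines for 2 and 8, with 52 of them at ratios under 2.5.

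By edgeR's quasi-likelihood test over the whole table, at a Benjamini-Hochberg adjusted p under 0.05, all 136 were called lower. Over all genes tested 40.4% were called in either direction, 21.1% were called lower, 7.16% were called lower by at least 2-fold, and among genes of at least 50 CPM in Tak-1 27.1% were called lower. Since the same contrast chose the genes, nothing is read from that count. Their fitted log2 fold changes lay between -2.89 and -1.04, the median being -1.50 and the median SE 0.11.

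At the level border and the lower ratio border the values run on without a step. The pair with the lowest Tak-1 means inside had 50.5 and 51.7 CPM, and the nearest pair outside had 49.98 and 49.2 CPM with ratios of 2.59 and 3.52. At the lower ratio border the nearest genes inside had ratios of 2.005 and 2.01, and the nearest outside had 1.998 and 1.99. At the upper border there was a gap, with 7.24 and 6.96 inside and 8.72 and 8.91 outside.

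The highest transcript of the group was Mapoly0049s0099.v3.1, on the minus strand of scaffold_49 from 918607 to 929654, with 3 exon blocks and 10063 exon bases. An exon block is a stretch covered by 1 or more overlapping exons of a model. It stood at 2503, 2484 and 2638 CPM in Tak-1 and at 682, 644 and 849 CPM in Mpbes1. The Tak-1 plants were alike, and the third Mpbes1 plant was higher than the other two but far below the wild type. The means were 2542 ± 84.1 and 725 ± 109.5 CPM (SD, n = 3), a ratio of 3.51 and a fitted log2 fold change of -1.85 ± 0.11 (SE). Its rank among all models by CPM went from 22 in Tak-1 to 174 in Mpbes1. Part of that rank comes from its long exons: per kilobase of exon its Tak-1 level was 253 CPM, which was below 7 other genes of the group.

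Per kilobase the leading genes were a pair of neighbours on the plus strand of scaffold_23. The gene from 1623981 to 1625298, with 4 exon blocks and 676 exon bases, had 1380, 1328 and 1206 CPM in Tak-1 and 439, 491 and 308 CPM in Mpbes1. Its neighbour from 1628760 to 1630045, with 3 exon blocks and 926 exon bases, had 1529, 1649 and 1626 CPM in Tak-1 and 558, 566 and 390 CPM in Mpbes1. Both were lowest in the third Mpbes1 plant, and in neither did the genotypes overlap. Their ratios were 3.16 and 3.17, and their levels per kilobase of exon were 1930.2 and 1729 CPM in Tak-1 and 611 and 545 CPM in Mpbes1. In sum the pair went from 2906 ± 72.5 to 918 ± 193 CPM (SD, n = 3). If the genes are near-identical copies, which could not be checked without sequence, reads may have been shared or discarded between them.

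The next gene per kilobase lies on the minus strand of scaffold_202 from 125934 to 127819, with 3 exon blocks. It had 1244, 1589 and 1916 CPM in Tak-1 and 644, 676 and 646 CPM in Mpbes1. Here the wild-type plants were spread and the mutant plants were alike, with a coefficient of variation (CV, the SD as a percent of the mean) of 21.2% in Tak-1 and 2.66% in Mpbes1. The ratio of the means was 2.42. A gene on the minus strand of scaffold_7 from 1450406 to 1452811, with 5 exon blocks, followed at 725, 751 and 795 CPM in Tak-1 and 288, 309 and 331 CPM in Mpbes1, a ratio of 2.45. The remaining genes named for their level per kilobase were less even. The gene on scaffold_45 from 73392 to 78544 had 251, 389 and 335 CPM in Tak-1 and 125, 103 and 177 CPM in Mpbes1, so that its lowest Tak-1 value was 1.41 times its highest Mpbes1 value. On scaffold_7, the gene from 630333 to 632047 had 197, 246 and 212 CPM in Tak-1 and 109.5, 114 and 84.3 CPM in Mpbes1.

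On scaffold_81 2 members lie end to end on the plus strand and share 59 bases. The upstream model, from 741750 to 776491, holds 31561 exon bases in 6 exon blocks, the longest exon length of any model in the table. It had 400.4, 494 and 425 CPM in Tak-1 and 198, 212 and 194 CPM in Mpbes1. The downstream model, from 776433 to 781509, has 2 exon blocks and had 538, 639 and 578 CPM in Tak-1 and 241, 272 and 253 CPM in Mpbes1. In both the second Tak-1 plant and the second Mpbes1 plant were the highest of their genotype, and the ratios were 2.18 and 2.29. Per kilobase of exon the Tak-1 levels were 13.9 and 118 CPM, so the long model's CPM reflects its length. Whether 2 models so placed are separate transcripts cannot be told from counts per model.

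**Figure D2:**
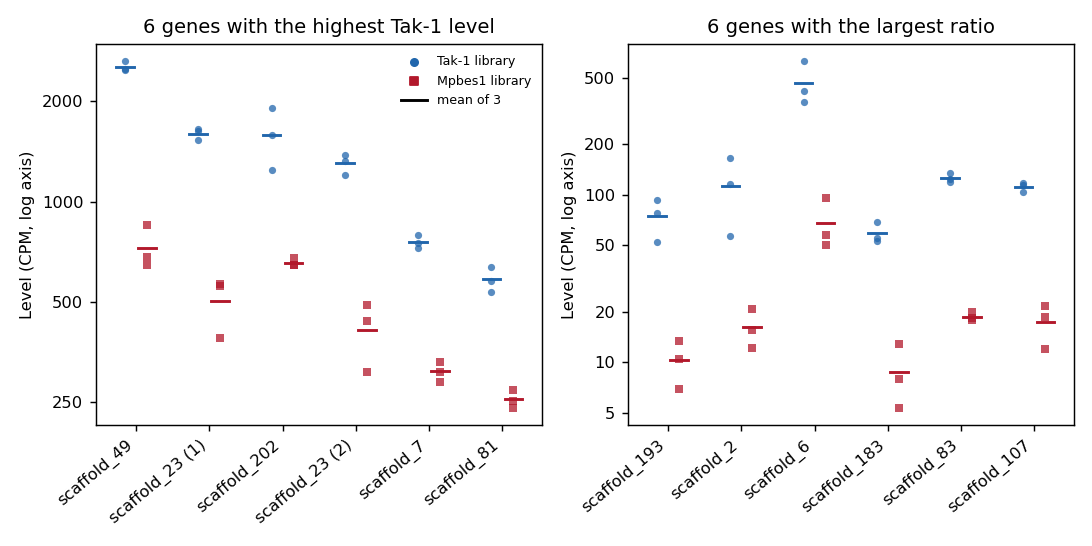
Level in each library (CPM, log axis) of the 6 genes with the highest Tak-1 mean (left) and the 6 with the largest ratio (right), named by scaffold, with bars for the mean of 3 libraries; on scaffold_23, (1) is the gene from 1628760 and (2) the gene from 1623981. In none of the 12 do Tak-1 (blue circles) and Mpbes1 (red squares) overlap, and the spread of the circles differs between genes.

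The largest ratio belonged to Mapoly0193s0024.v3.1, on the minus strand of scaffold_193 from 190599 to 193228, with 3 exon blocks. It had 52.2, 78.2 and 92.5 CPM in Tak-1 and 6.90, 13.4 and 10.5 CPM in Mpbes1. The first plant was lowest in both genotypes. The means were 74.3 ± 20.4 and 10.3 ± 3.27 CPM (SD, n = 3), a ratio of 7.24 and a fitted log2 fold change of -2.89 ± 0.30 (SE).

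A gene on the minus strand of scaffold_2 from 3384894 to 3386754 followed with a ratio of 6.96. Its Tak-1 plants differed widely, at 56.9, 165 and 116 CPM, and its Mpbes1 plants stood at 12.1, 15.6 and 20.9 CPM. The gene on scaffold_6 from 1836554 to 1843108, with 11 exon blocks, combined a large ratio with a high level. It had 360.1, 414 and 627 CPM in Tak-1 and 49.8, 57.3 and 95.1 CPM in Mpbes1, a ratio of 6.93. Its mean of 467 CPM in Tak-1 was by far the highest among the 12 genes of the group with ratios of 5 or more, of which the next highest had 126 CPM.

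That next gene, on the minus strand of scaffold_83 from 321094 to 322791, has 1 exon block and was even between plants. It had 124, 119.6 and 135 CPM in Tak-1 and 18.5, 19.8 and 17.8 CPM in Mpbes1. Its lowest Tak-1 value was 6.03 times its highest Mpbes1 value, the widest gap of the 136. The fitted log2 fold change was -2.80 ± 0.08 (SE). The gene on scaffold_183 from 25175 to 27720 had 53.1, 54.9 and 69.1 CPM in Tak-1 and 7.93, 12.9 and 5.35 CPM in Mpbes1. On scaffold_107 the gene from 73647 to 74690, also with 1 exon block, had 117, 104 and 114 CPM in Tak-1 and 11.99, 18.5 and 21.6 CPM in Mpbes1. The other 6 genes of the group with a ratio of 5 or more had ratios of 5.19 to 5.67 and Tak-1 means of 58.5 to 111 CPM. Among them the gene on scaffold_44 from 1388301 to 1393681 was the most even, with a Tak-1 mean of 60.8 ± 5.86 CPM and a Mpbes1 mean of 11.02 ± 0.13 CPM (SD, n = 3).

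At the other end, 4 genes had ratios between 2.005 and 2.02. The gene on scaffold_65 from 205512 to 214370, with 13 exon blocks, had 284, 310.4 and 260.3 CPM in Tak-1 and 136, 144 and 146 CPM in Mpbes1. On scaffold_98 the gene from 35000 to 36640 had 101, 115 and 125 CPM in Tak-1 and 57.7, 60.9 and 51.3 CPM in Mpbes1. Both were clear of overlap, but their place in the group rests on a ratio just above the limit. The last 2 of the 4 lie near each other on scaffold_91. The gene from 818481 to 824202 had 221, 216 and 225 CPM in Tak-1 and 108, 111 and 108 CPM in Mpbes1, the smallest mean CV of the group. The gene from 839965 to 843279 had 102, 96.1 and 96.5 CPM in Tak-1 and 44.6, 49.8 and 51.3 CPM in Mpbes1.

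The size of the decrease was somewhat smaller among higher transcripts. The median ratio was 2.93 over the 71 genes under 100 CPM in Tak-1 and 2.53 over the 65 genes of at least 100 CPM. By exon number it was 2.85 with 1 or 2 exon blocks (43 genes), 2.70 with 3 to 5 (49 genes), 2.56 with 6 to 10 (31 genes) and 2.84 with over 10 (13 genes), with no order from few to many.

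Plants of the same genotype differed more at these genes than at the other genes of at least 50 CPM in Tak-1 as a whole. The median CV between Tak-1 plants was 11.6% over the 136, against 6.71% over the 4335 other genes of at least 50 CPM. Both groups had nearly the same median level in Tak-1, 97.6 and 99.5 CPM, and a median CV from counting alone of 2.84% and 2.81%, so depth was alike. Between Mpbes1 plants the median CV was 8.52% against 4.29%. There the counting part was larger for the lowered genes, 4.50% against 2.68%, because their counts are lower. Among genes of at least 100 CPM the medians were 9.97% against 6.67% in Tak-1 and 7.31% against 4.12% in Mpbes1. A CV over 20% was found for 30 of the 136 in Tak-1 (22.1%) and 129 of the 4335 (2.98%), and for 27 (19.9%) and 49 (1.13%) in Mpbes1. The spread was not particular to this group. Over the 92 moderately raised genes described below, with a median Tak-1 level of 31.4 CPM, the median CVs were 10.7% in Tak-1 and 8.38% in Mpbes1. Over the 17 genes lowered at least 8 times they were 22.0% and 44.3%, the latter at a median of 1.77 CPM. Spread is only partly independent of the choice, which used the same values.

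**Figure D3:**
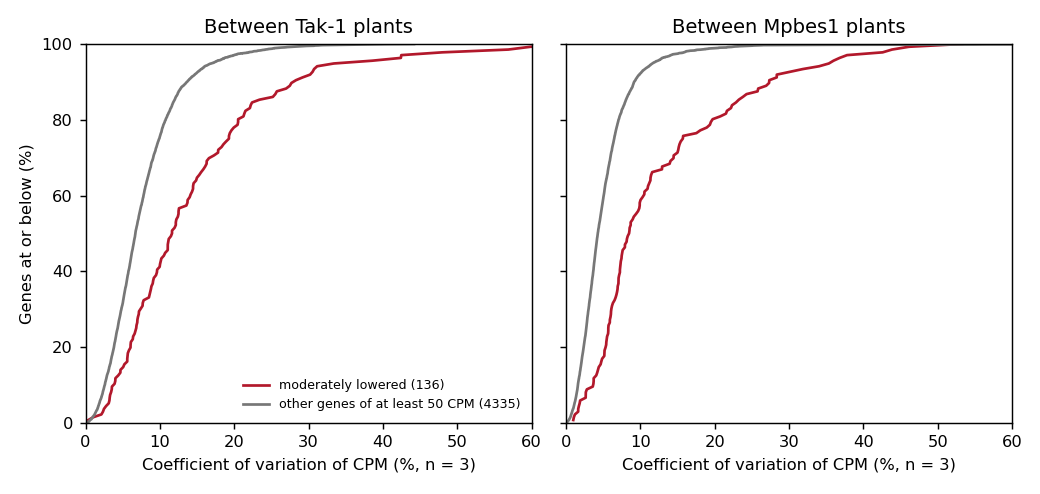
Share of genes (%) at or below a given coefficient of variation of CPM between the 3 plants of Tak-1 (left) and of Mpbes1 (right), for the 136 moderately lowered genes (red) and 4335 other genes of at least 50 CPM in Tak-1 (grey). The red curves lie to the right, with medians of 11.6% and 8.52% against 6.71% and 4.29%; the axis ends at 60%.

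The spread was larger where the ratio was larger. The median Tak-1 CV was 10.8% for ratios under 2.5, 11.1% from 2.5 to under 4 and 19.3% from 4 up (52, 59 and 25 genes), and in Mpbes1 it was 6.06%, 10.04% and 21.7%. Ratio and CV come from the same values, so this is a description only.

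The spread had a direction in each genotype. Of the 30 genes with a Tak-1 CV over 20%, 24 were lowest in the first plant and 18 were highest in the second. Of the 129 other genes with such a CV, 57.4% were highest in the second plant, which was thus the most frequent highest plant there too. Of the 27 moderately lowered genes with a Mpbes1 CV over 20%, 17 were lowest in the first plant and 19 highest in the third. Which plant was lowest among the 129, or highest or lowest among other genes with such a Mpbes1 CV, was not counted. For those directions it is therefore not known whether they are particular to the group. Over all 136 the second Tak-1 plant was highest for 42.6% and the third Mpbes1 plant for 47.8%, against 37.2% and 41.7% of the 4335 others. The same plants were thus most often the highest among the others too. For the lowest plant the others as a whole differed. The first Tak-1 plant was lowest for 43.4% of the 136 and 28.9% of the others, where the third was most often lowest (40.7%). The first Mpbes1 plant was lowest for 40.4% of the 136 and 28.9% of the others, where the second was most often lowest (36.3%). This lean was not particular to the 136. Among the 17 genes lowered at least 8 times, the first plant was lowest for 58.8% in Tak-1 and 64.7% in Mpbes1. The 92 moderately raised genes did not share it. There the first Tak-1 plant was lowest for 29.3%, and the second Mpbes1 plant was most often lowest (48.9%). What differed between these plants was not tested, and the labels name no batch.

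The gene that varied most lies on the minus strand of scaffold_23 from 911799 to 917704 and has 17 exon blocks. It had 44.7, 183 and 73.6 CPM in Tak-1 and 25.4, 24.9 and 36.9 CPM in Mpbes1. Its lowest Tak-1 value was only 1.21 times its highest Mpbes1 value, the narrowest gap of the group. The ratio was 3.45 with all libraries and 2.04 without the second Tak-1 plant, and edgeR no longer called it when any 1 of the Mpbes1 plants was left out, with unadjusted library sizes, with no filter on low counts or with the replicate block. The same plant raised the gene on scaffold_36 from 232076 to 235547, at 39.5, 113 and 48.3 CPM in Tak-1, whose ratio went from 3.93 to 2.58 without it. That gene had 18.2, 17.4 and 15.4 CPM in Mpbes1 and also lost its call when any 1 of the Mpbes1 plants was left out. These were the only genes of the 136 whose ratio moved by over 1.5 times when a library was left out. The gene on scaffold_74 from 1012956 to 1014649 came close, with a ratio of 3.81 that went to 2.60 without the second Tak-1 plant. It too lost its call when any 1 of the Mpbes1 plants was left out. In Mpbes1 the widest spread was that of the gene on scaffold_30 from 1259723 to 1263030, at 8.79, 22.3 and 30.4 CPM, which had 70.2, 93.3 and 109 CPM in Tak-1.

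Steady members also existed. In 39 of the 136 the CV was under 10% in both genotypes. After the gene on scaffold_91 from 818481, the steadiest were the gene on scaffold_33 from 489232 to 492602 and the gene on scaffold_118 from 253913 to 256821. The former had 65.4, 70.0 and 64.0 CPM in Tak-1 and 29.5, 30.4 and 29.7 CPM in Mpbes1. The latter had 198, 197 and 187 CPM in Tak-1 and 87.1, 88.8 and 93.6 CPM in Mpbes1. Genes with a small ratio thus included some of the most precisely measured decreases of the group. With each library left out in turn, 106 of the 136 met all criteria every time, and the ratio fell under 2 at least once in 18.

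The gene models of the group had fewer exon blocks than other well-expressed genes. The median was 4 blocks, against 7 over the 4335 others, and the median exon length was 2312 against 2779 bases. Models with 1 exon block made up 22 of 136 (16.2%) against 8.47%, and models with over 10 made up 13 of 136 (9.56%) against 29.3%. The excess of 1 or 2 blocks, 31.6% against 19.2%, lay mostly among the lower levels. Under 100 CPM in Tak-1 it was 39.4% against 19.1%, and from 100 CPM up it was 23.1% against 19.2%, while the median number of blocks there was still 4 against 6. Structure was not used by the choice, but genes are not replicates, so these shares are given without a test. A lean of changed genes towards few exon blocks was known from these data when the group was chosen, so the difference is no independent support.

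The mirror group shared this lean in part. Over 92 genes with a mean of at least 50 CPM in Mpbes1 that were higher there by 2 to under 8 times without overlap, the median was also 4 exon blocks, with 29.3% at 1 or 2 and 19.6% over 10. Models with 1 exon block made up only 5 of the 92 (5.43%), below the 8.47% of the other well-expressed genes. Over the 17 genes lowered at least 8 times the median was 2 exon blocks, with 52.9% at 1 or 2 and 0 of 17 over 10. Their Tak-1 level was like that of the moderately lowered genes, with a median of 96.9 CPM, while their median level in Mpbes1 was 1.77 CPM.

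**Figure D4:**
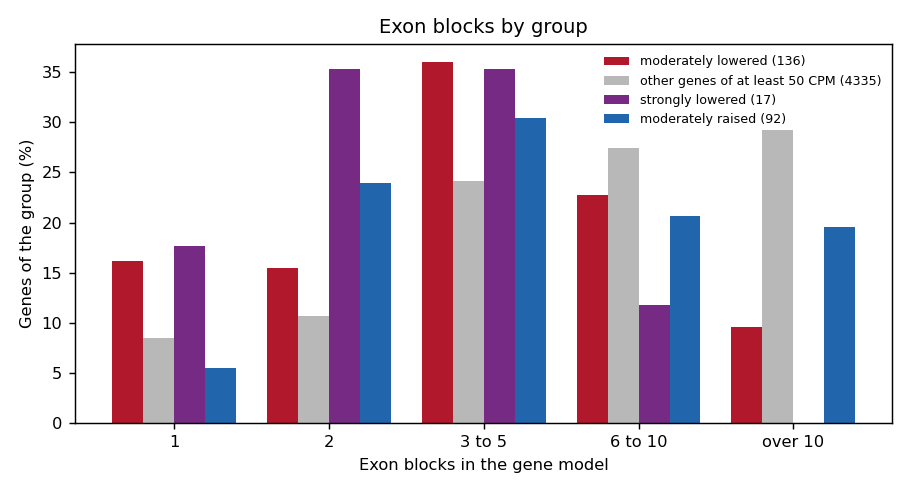
Share of gene models (%) by number of exon blocks for the 136 moderately lowered genes, 4335 other genes of at least 50 CPM in Tak-1 (which include the strongly lowered and some of the raised genes), the 17 strongly lowered and the 92 moderately raised genes. Models with over 10 blocks make up 9.56% of the moderately lowered and 29.3% of the other genes.

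The 136 genes lie on 88 scaffolds, and 54 of these hold 1 of them. The most are on scaffold_7 with 7, scaffold_27 with 6 and scaffold_23 with 4. The strands were nearly even, with 72 genes on the plus strand (52.9%, against 49.3% of the others). None lies on the sequences named for the male sex chromosome, Chr_Y_A and Chr_Y_B, which hold 14 of the 4335 others. Scaffolds that carry no more than 5 models hold 7 of the 136 (5.15%) and 1.20% of the others. They hold 3.60% of all gene models, 2 of the 17 genes lowered at least 8 times (11.8%) and 1.09% of the moderately raised genes. Another model overlaps on the opposite strand in 9 genes and on the same strand in 6, the scaffold_81 pair included. All overlapping models other than the scaffold_81 pair had at most 1.48 CPM in either genotype, which is little beside the levels of the genes they overlap. How reads in shared bases were counted is not given, so reads lost to the overlaps cannot be judged.

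Genes lower in the mutant were more frequent beside members than beside the other genes, though still a minority of the neighbours. In all, 14 of the 136 were next to another member, as 5 pairs and 1 group of 4. Of 108 next-door places held by a model of at least 5 CPM that was not a member, 17 (15.7%) were lower at least 2-fold without overlap and 4 (3.70%) were higher. Next to the 4335 others it was 101 of 5182 (1.95%) lower and 2.61% higher. These neighbours are read in the same contrast, and a clustering of changed genes along the scaffolds was known from these data when the group was chosen, so this too is a description.

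The group of 4 lies on scaffold_27 between 1627624 and 1647775. Each of its models has 2 exon blocks and 667 to 925 exon bases, the first on the minus strand and the other three on the plus strand. Their summed level was 429.9, 325 and 313 CPM in Tak-1 and 119.8, 118 and 88.8 CPM in Mpbes1. The first Tak-1 plant, lowest for most of the variable genes above, was highest for each of these 4, and the third Mpbes1 plant was lowest for each. The Tak-1 means were 88.3, 88.1, 92.5 and 87.0 CPM along the scaffold, nearly equal, while the ratios were 4.51, 3.002, 2.68 and 3.43.

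The flanking models on both sides share the structure and the direction but miss the limits. Upstream, the models from 1607951 and from 1616099, also with 2 exon blocks, went from 31.7 ± 5.79 to 12.7 ± 3.97 CPM and from 42.7 ± 9.35 to 7.15 ± 2.78 CPM (SD, n = 3). Downstream, the models from 1652779 and from 1661940 went from 43.5 ± 11.9 to 5.30 ± 2.63 CPM and from 25.9 ± 3.93 to 1.47 ± 0.47 CPM. These 4 were below 50 CPM in Tak-1, and the last 2 had ratios of 8.21 and 17.6. The weakest loss, 2.51 and 2.68, and the strongest, 17.6, thus occur within 1 series of like models. Beyond them, the model from 1675721, with 12 exon blocks, was higher in Mpbes1, at 47.4 ± 2.12 against 22.9 ± 4.71 CPM. Reads shared between near-identical copies could make such neighbours alike, which was not tested.

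**Figure D5:**
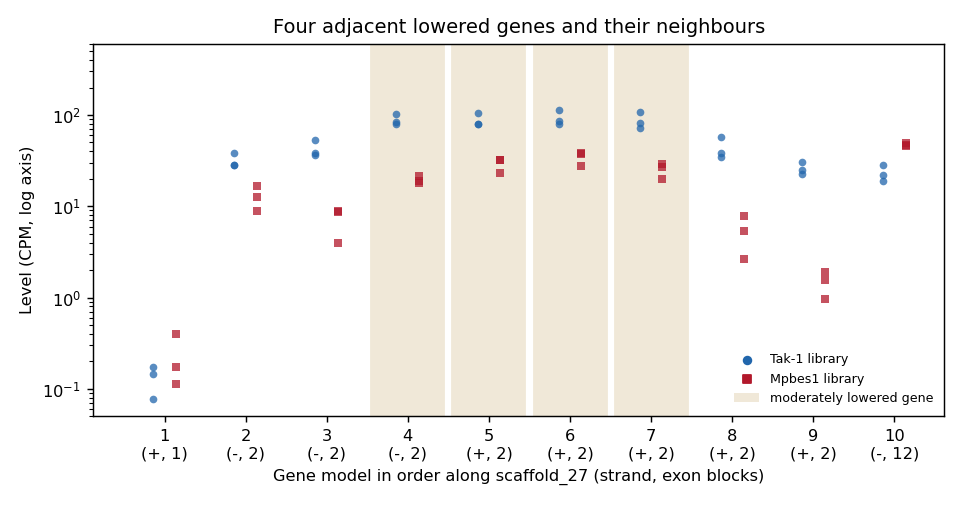
Level in each library (CPM, log axis) of 10 gene models in order along scaffold_27, with strand and number of exon blocks under each; Tak-1 are blue circles, Mpbes1 red squares, and shading marks the 4 adjacent moderately lowered genes. Models 2 to 9 all have 2 exon blocks and lie lower in every Mpbes1 library than in any Tak-1 library, with ratios of 2.51 to 17.6.

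The remaining pairs differed in how alike their members were. On scaffold_223 the genes from 45196 and from 50362, with 3 exon blocks each on the minus strand, had ratios of 2.70 and 4.84 and together went from 109 ± 15.9 to 30.7 ± 11.5 CPM (SD, n = 3). The first plant of each genotype was lowest and the third highest for both. The next model there, from 55773, was also lower in Mpbes1, at 2.07 ± 0.69 against 7.81 ± 2.01 CPM, while the one after it, from 63925, stood at 105 ± 10.03 and 128 ± 23.8 CPM. On scaffold_28 the genes from 1124581 and from 1149742 had ratios of 2.22 and 2.92 and together went from 302 ± 43.1 to 111 ± 10.8 CPM. Both were highest in the second Tak-1 plant. On scaffold_7 the genes from 1168137 and from 1172869 had 4 exon blocks and 1 exon block and ratios of 4.07 and 2.33. The former was level between Tak-1 plants, at 51.7, 51.6 and 52.6 CPM, and the latter was not, at 109.6, 94.9 and 72.2 CPM, so these neighbours did not vary together in Tak-1.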

How the data were processed

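Raw counts of reads were deposited by the authors in 1 table, unnormalized, for 19287 gene models in 6 libraries, with the position of each exon and the exon length. Tools listed in the submitters' processing notes are featureCounts 1.5.1, STAR 2.5.2b and edgeR. For strand handling, other settings and the genome build, nothing is given in the sources used here. Identifiers end in v3.1, per the file headers, and coordinates follow the deposited table and count from 1. From the counts, CPM by column total, means, ratios, CVs, merged exon blocks and neighbours were computed (Python 3.11.15, pandas 2.3.3). CPM per kilobase divides by the deposited exon length. The whole table was tested with edgeR 4.0.16 in R 4.3.3 (quasi-likelihood, robust, TMM, filterByExpr, genotype only, Benjamini-Hochberg), after a check on simulated counts, and with DESeq2 1.42.0 as an alternative. Standard errors come from the F statistic.

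The series' text calls the plants of a genotype independent biological replicates. Replicates differed by more than sampling noise, with a chi-square of 2.98 to 10.5 per gene between pairs. The member genes and the lists compared were chosen with earlier results of these data known. Described by name are the 6 genes highest in Tak-1 by CPM and by CPM per kilobase, the 6 largest and 4 smallest ratios, the 3 largest and 3 smallest CVs, groups of at least 3 neighbours and the genes at each border. The pairs of neighbours, the long model on scaffold_81, the genes on scaffold_36, scaffold_44 and scaffold_74 and the models flanking the groups were added after their values were seen. Pathway lists could not be filled without gene names, and no sequence was at hand.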

Additional observations from a re-analysis of the deposited data

How the results depend on the processing

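Of 86 alternative values for 12 results, 80 moved by less than 1.5 times for a count, or by less than the spread between replicates for a value. Membership was 148 with TMM-adjusted or RLE-adjusted library sizes, which kept all 136 and added 12, and 129 to 148 with 1 library left out. It was 199 from 30 CPM up, which kept all 136 and added 63. It was 65 from 100 CPM up and 67 when 50 CPM per kilobase was asked for. The median log2 ratio was -1.48 to -1.40 with 1 library left out, lying at -1.40 without the second Tak-1 library and without the first Mpbes1 library. The share of CPM per kilobase in Tak-1 was 2.79%, and the share of members with 1 or 2 exon blocks from 100 CPM up was 23.1%. In edgeR 4977 genes were called, 3974 to 4808 with 1 library left out, and 129 to 136 of the members were among those lower; 7 members lost the call at least once. The replicate numbers were not shown to pair the plants (correlations of 0.17, -0.03 and 0.14); with the replicate block 5246 genes were called, 2753 of them lower, and 135 members. DESeq2 called 4481 and all 136 members. Without a filter on low counts 132 members were called. The lowest count of a member was 80, and the median CV from counting alone was 2.84% in Tak-1 and 4.50% in Mpbes1. Counting error can still matter for genes near a border of the choice.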
